A study of Mus musculus with 12 samples.

Results

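The genes described here code for the laminin chains, the nidogens and heparan sulfate proteoglycans of the basement membrane, and the integrin subunits, the receptors that bind these proteins from the cell side. They are a fixed list of 36 genes from gene families, out of 47642 genes in the table. No measured value served as a rule for the list, but earlier results of these data were known when it was chosen. Laminins are trimers of 1 alpha, 1 beta and 1 gamma chain, and they form the sheet on which epithelial cells sit. Nidogens and the proteoglycans perlecan and agrin join this sheet to other parts of the basement membrane. Integrins are pairs of an alpha and a beta subunit, and the pair sets the ligand: laminin, collagen, or proteins with an RGD (Arg-Gly-Asp) motif such as fibronectin. In the collecting duct, integrins hold the epithelium to its basement membrane and pass signals from it to the cell.

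RNA was sequenced from mIMCD3 cells, an epithelial line of the inner medullary collecting duct from mice that carry the early region of simian virus 40. Wild-type cells (Wt), *Pkd1*-/- cells and *Pkd2*-/- cells of this line were compared, with 4 libraries each and no treatment. The *Pkd1*-/- line carries a CRISPR/Cas9 deletion of most of the gene, and the *Pkd2*-/- line a TALEN deletion of inner exons. Each mutant line is a single clone, and the 4 libraries of a genotype came from 4 of 6 dishes, harvested 4 days after full confluency. Their spread therefore does not include variation between clones, and p-values measure the spread between dishes.

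All values are normalized counts, which are read counts per gene that the authors divided by a size factor of each library and rounded. The 12 libraries summed to between 25966273 and 28027792 normalized counts, and read depth itself was not taken from these values. *Pkd1* had 782 ± 112 normalized counts in Wt (SD, n = 4) and 41.8 ± 8.81 in *Pkd1*-/- cells (SD, n = 4). *Pkd2* had 3971 ± 451 in Wt and 3986 ± 124 in *Pkd2*-/- cells (SD, n = 4 each). The deletion leaves the other exons in place and the table gives 1 value per gene, so the *Pkd2* value does not check the label of the *Pkd2*-/- libraries, and *Pkd2*-/- stands below for the libraries so labelled. Of 18 markers of kidney epithelium and collecting duct, 15 averaged 10 normalized counts or more, among them *Epcam*, *Cdh1*, *Krt8* and *Pax8*. Other markers of this list changed strongly: *Krt19* was lower in both mutants (log2 −1.75 in *Pkd1*-/- and −1.66 in *Pkd2*-/-), *Gata3* was lower in *Pkd1*-/- (−2.20), and *Atp6v1b1*, a proton pump subunit of intercalated cells, had 57.0, 513 and 1.00 normalized counts in Wt, *Pkd1*-/- and *Pkd2*-/- cells. *Aqp2*, the water channel of principal cells, and *Foxi1*, a factor of intercalated cells, were at 0 in all 12 libraries. The 5 endothelial markers summed to at most 10 normalized counts in any library and the 6 fibroblast and pericyte markers to at most 99. The 7 leukocyte and platelet markers summed to 893 to 1000 in Wt, 430 to 652 in *Pkd1*-/- and 736 to 826 in *Pkd2*-/- cells, mostly through *Csf1r*, while *Adgre1* and *Cd3e* were at 0. The part of these markers in the results below was not tested.

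Some libraries stood apart in a way that touches these genes. In genes with long transcripts (longest annotated transcript of at least 6494 bases, 1368 genes), the median log2 difference of *Pkd2*-/- from Wt was 0.18, and it was −0.05 in the 1368 genes with the shortest transcripts (at most 953 bases). For *Pkd1*-/- against Wt, these medians were 0.01 and 0.04. Libraries of the same genotype differed in this way too: in the long genes, *Pkd2*-/- replicate 4 lay 0.17 above the mean of its genotype and *Pkd2*-/- replicate 3 lay at −0.12, *Pkd1*-/- replicate 1 lay at −0.11, and Wt replicates 2 and 4 lay at −0.12 and 0.11. Of the 25 listed genes that averaged 10 normalized counts or more, 9 belong to these 1368 long genes and 0 to the short ones. *Pkd2*-/- replicate 4 held the highest value of its genotype for 19 of these 25 genes, and *Pkd1*-/- replicate 1 held the lowest of its genotype for 19. Position on the chromosomes also moved with genotype. In *Pkd2*-/- cells the median log2 fold change from Wt was 0.33 over 1058 genes of chromosome 2 and 0.28 over 482 genes of chromosome 19, and lay between −0.08 and 0.04 on each of the other 18 chromosomes. *Lama5*, *Itga6*, *Itgav* and *Itgb6* lie on chromosome 2, and no tested gene of the list lies on chromosome 19. Results that change without these libraries, or when the length trend is taken out, are named where they appear, and the part of chromosome 2 was not tested. The correction for length stays constant above 9536 bases, the median of the longest of 20 bins. For genes with longer transcripts, among them *Lama3*, *Lama5*, *Itga1*, *Hspg2*, *Plec* and *Dst*, a trend beyond that length is therefore not taken out.

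**Figure D1:**
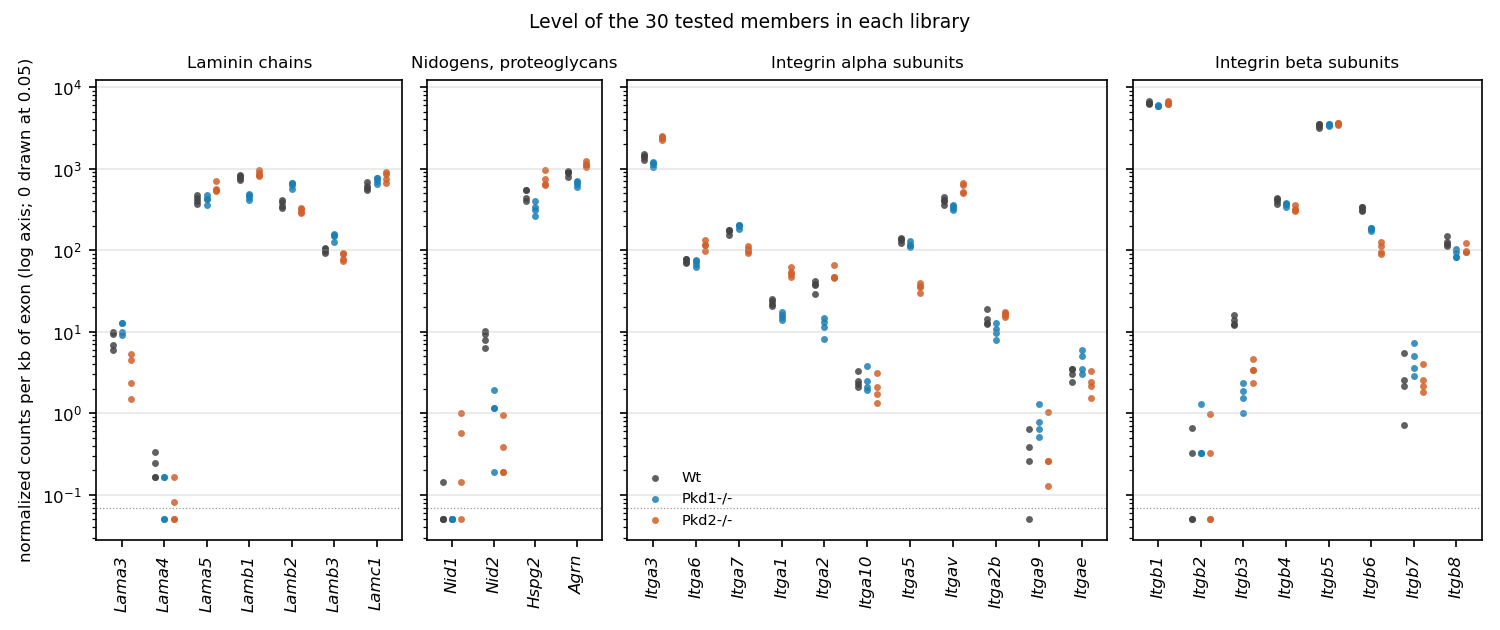
Normalized counts per kilobase of exon (log axis) of the 30 tested genes in each of 12 libraries, with Wt in grey, *Pkd1*-/- in blue and *Pkd2*-/- in orange; a value of 0 is drawn at 0.05. *Itgb1*, *Itgb5* and *Itga3* are the highest in all 3 genotypes, and *Nid2* and *Itgb3* are the clearest cases in which both mutants lie below Wt.

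Of the 36 genes, 30 averaged 1 normalized count or more and were tested, 25 averaged 10 or more, and 14 averaged 1000 or more. The 6 that were not tested were *Lama1*, *Lama2*, *Lamc3*, *Itga11*, *Itga8* and *Itga4*. *Itga8* and *Itga4* were at 0 in all libraries, which allows up to 3 counts per library, and the other 4 genes did not exceed 2 normalized counts in any library. By level per kilobase of exon in Wt, the order began with *Itgb1* (6390 ± 178 normalized counts per kilobase, SD, n = 4), *Itgb5* (3386 ± 170) and *Itga3* (1400 ± 83.4). These genes code for the common beta subunit, a partner of the alpha v subunit, and the main laminin receptor subunit of the kidney epithelium. *Agrn* (880 ± 72.1), *Lamb1* (781 ± 42.9), *Lamc1* (606 ± 57.6), *Hspg2* (488 ± 76.7) and *Lama5* (420 ± 48.0) followed. *Hspg2*, *Lama5*, *Itgb4* (409 ± 29.4) and *Itgav* (403 ± 38.3) are neighbors in this order, and each differed from the next by less than the SD of *Hspg2*. The first 3 places were the same in all 3 genotypes.

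For each gene, *Pkd1*-/- with Wt, *Pkd2*-/- with Wt, and *Pkd2*-/- with *Pkd1*-/- cells were compared on log2(normalized count + 1) with limma, over 18552 genes with p-values adjusted for all of them. A gene is said to have risen or fallen at an adjusted p under 0.05, and to have changed strongly when its log2 fold change was also at least 1 in either direction.

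In *Pkd1*-/- cells, 17 of the 30 tested genes differed from Wt, 13 lower and 4 higher. Over all genes tested, 27.1% differed, 13.5% lower and 13.6% higher. The strong changes were 3, all lower: *Nid2*, *Itga2* and *Itgb3*. Over all genes, 6.24% changed strongly, 3.28% lower and 2.96% higher. The 30 listed genes had a median of −0.18, beside 0.01 for all genes, on the log2 scale.

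In *Pkd2*-/- cells, 20 of the 30 differed from Wt, 10 lower and 10 higher. Over all genes, 42.3% differed, 22.3% lower and 20.0% higher. The strong changes were 6, of which *Lama3*, *Nid2*, *Itga5*, *Itgb3* and *Itgb6* were lower and *Itga1* was higher. Over all genes, 9.62% changed strongly, 6.38% lower and 3.24% higher. The 30 listed genes had a median of 0.08, beside −0.01 for all genes, on the log2 scale.

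Between the mutants, 21 of the 30 genes differed, 13 higher in *Pkd2*-/- cells and 8 lower. Over all genes, 46.3% differed, 21.9% higher and 24.3% lower. Strong differences were found for 8 genes, with *Nid1*, *Hspg2*, *Itga3*, *Itga1* and *Itga2* higher in *Pkd2*-/- cells and *Lama3*, *Lamb2* and *Itga5* lower. Over all genes, 11.8% differed strongly, 4.53% higher and 7.23% lower. The 30 listed genes had a median of 0.07, beside −0.01 for all genes, on the log2 scale. The call of *Nid1* rests on 4, 0, 7 and 1 normalized counts in *Pkd2*-/- cells and 0 in every *Pkd1*-/- library, its groups overlapped, and it was lost without any 1 of the *Pkd1*-/- libraries.

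Since both comparisons with Wt share the Wt libraries, the values of each gene are set side by side without a test of likeness. *Nid2*, *Itgb3*, *Itgb4*, *Itgb6* and *Itgb8* were lower than Wt in both mutants, and *Lamc1* was higher in both. *Lamb1*, *Hspg2*, *Agrn*, *Itga3*, *Itga1*, *Itga2* and *Itgav* were lower in *Pkd1*-/- and higher in *Pkd2*-/- cells. *Lamb2*, *Lamb3* and *Itga7* were higher in *Pkd1*-/- and lower in *Pkd2*-/- cells. Some of these calls lay close to the threshold and were lost when 1 of the 8 libraries compared was left out. This was so in *Pkd1*-/- cells for *Lamc1* and *Itgb4* (6 libraries each), *Itgav* (5), *Itga2b* (4) and *Itga7* (3). It was so in *Pkd2*-/- cells for *Lamb1* (5), *Itgb8* (4), *Itga2* (3: Wt replicates 1 and 2 and *Pkd2*-/- replicate 4) and *Lamb3* (*Pkd2*-/- replicate 3). Between the mutants, *Itgb4* (6), *Itgae* and *Nid1* (4 each) and *Itgb1* (2) lost their calls in this way. With the length trend taken out, *Lamb1* and *Itga2* no longer passed in *Pkd2*-/- cells, *Nid1* no longer passed between the mutants (adjusted p = 0.0524), *Itgb1* passed as lower in *Pkd1*-/- cells, and the rest of these directions were kept. *Lama4*, *Itga10*, *Itga9*, *Itgb2*, *Itgb5* and *Itgb7* passed the test in none of the 3 comparisons.

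**Figure D2:**
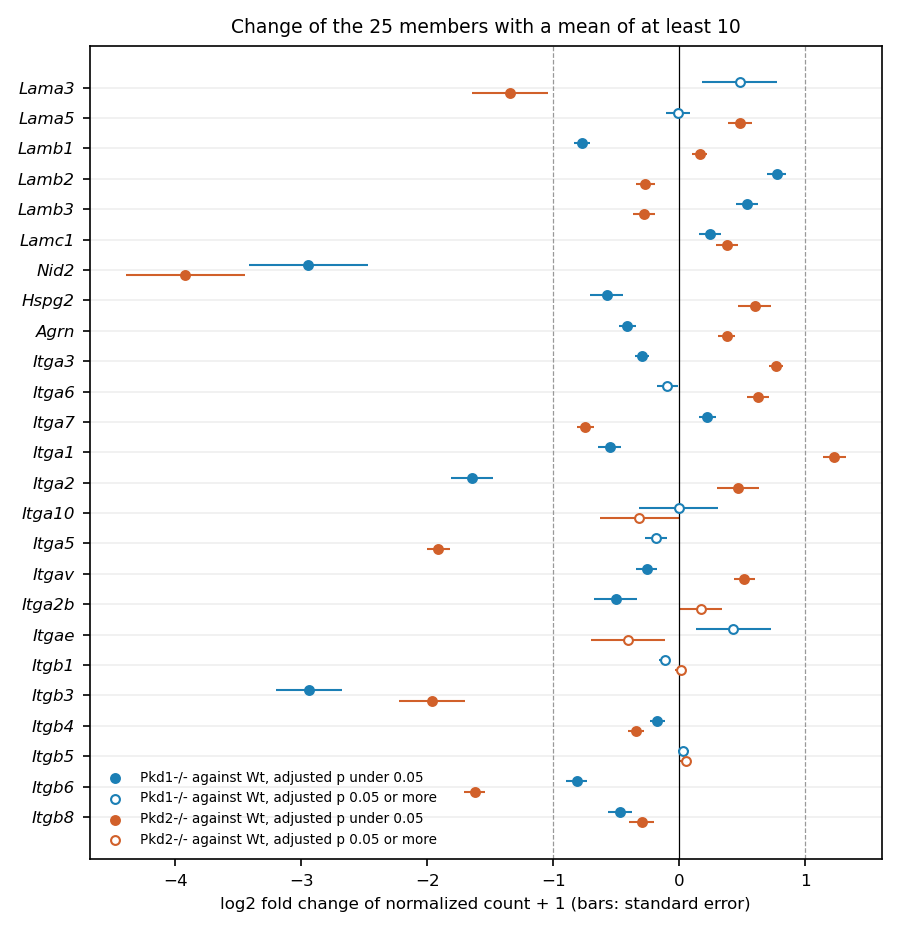
Log2 fold change against Wt (x axis) of the 25 genes that averaged 10 normalized counts or more, with *Pkd1*-/- in blue and *Pkd2*-/- in orange, bars giving the standard error and filled points an adjusted p under 0.05. *Lamb1*, *Lamb2*, *Lamb3*, *Hspg2*, *Agrn*, *Itga3*, *Itga7*, *Itga1*, *Itga2* and *Itgav* have their 2 filled points on opposite sides of 0. *Nid2*, *Itgb3*, *Itgb4*, *Itgb6* and *Itgb8* have both on the left, and *Lamc1* has both on the right.

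*Lama5* codes for the alpha 5 chain of laminin-511 and laminin-521, laminins of the mature kidney. It held 4166, 4567, 5452 and 4925 normalized counts in Wt, 4017, 4846, 4778 and 5371 in *Pkd1*-/-, and 6056, 6468, 6217 and 8075 in *Pkd2*-/- cells. All *Pkd2*-/- libraries lay above all others, while Wt and *Pkd1*-/- libraries overlapped. On the log2 scale, the change was 0.49 in *Pkd2*-/- cells (standard error 0.10, limma adjusted p = 0.000381) and −0.01 in *Pkd1*-/- cells (adjusted p = 0.969, 95% interval −0.21 to 0.19). It belongs to the long genes and was 0.25 (adjusted p = 0.00577) higher in *Pkd2*-/- cells with the length trend taken out, and the 50 neighboring genes on chromosome 2 had a median log2 difference of 0.31 in *Pkd2*-/- cells. Per kilobase, *Lama5* made up 98.0% ± 0.48 of the alpha chain counts in Wt, 97.3% ± 0.64 in *Pkd1*-/- and 99.4% ± 0.28 in *Pkd2*-/- cells (SD, n = 4 each).

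*Lama3*, the alpha 3 chain of laminin-332, which anchors stratified epithelia, made up nearly all of the remainder. It held 101, 65, 106 and 74 normalized counts in Wt, 138, 108, 97 and 137 in *Pkd1*-/-, and 49, 16, 25 and 58 in *Pkd2*-/- cells. The *Pkd2*-/- libraries were the lowest 4, with a log2 fold change of −1.34 against Wt (standard error 0.30, limma adjusted p = 0.00117). Against *Pkd1*-/- cells it was −1.82 (adjusted p = 5.00e-05). In *Pkd1*-/- cells the log2 fold change from Wt was 0.48 (adjusted p = 0.269) and the groups overlapped. *Lama4*, the alpha 4 chain of vessels, did not exceed 4 normalized counts in any library.

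The beta 1 and beta 2 chains moved in opposite directions in *Pkd1*-/- cells. *Lamb1*, the beta 1 chain of most embryonic and tubular laminins, held 7270, 7523, 7970 and 8212 normalized counts in Wt. It held 4132, 4741, 4421 and 4868 in *Pkd1*-/- and 8350, 8867, 7932 and 9538 in *Pkd2*-/- cells. Every *Pkd1*-/- library was lower than every other library, whereas *Pkd2*-/- and Wt overlapped. Fitted log2 changes were −0.77 in *Pkd1*-/- (standard error 0.06, limma adjusted p = 1.76e-08) and 0.16 in *Pkd2*-/- cells (standard error 0.06, adjusted p = 0.0439). The value in *Pkd2*-/- cells was 0.10 (adjusted p = 0.0702) with the length trend taken out and 0.11 (adjusted p = 0.155) after upper quartile rescaling.

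*Lamb2*, the beta 2 chain found in the glomerulus and at synapses, did the reverse. It held 1991, 2379, 2516 and 2123 normalized counts in Wt, 3454, 4020, 3832 and 4069 in *Pkd1*-/-, and 1951, 1779, 1713 and 2016 in *Pkd2*-/- cells. The *Pkd1*-/- libraries were the highest 4. The log2 fold change from Wt was 0.77 in *Pkd1*-/- (standard error 0.07, limma adjusted p = 1.75e-07) and −0.27 in *Pkd2*-/- cells (adjusted p = 0.00609). Between the mutants it was −1.04 (adjusted p = 9.64e-10). Of the 50 genes around *Lamb2* on chromosome 9, 0 exceeded its rise in *Pkd1*-/- cells. *Lamb3*, the beta chain of laminin-332, had 664 ± 43.9, 967 ± 97.9 and 549 ± 59.7 normalized counts in Wt, *Pkd1*-/- and *Pkd2*-/- cells (SD, n = 4 each), and the 3 genotypes did not overlap.

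The make-up of the beta chains shifted with these values. Per kilobase of exon, *Lamb1* made up 62.4% ± 2.18 of the beta chain counts in Wt, 37.0% ± 0.47 in *Pkd1*-/- and 69.2% ± 0.90 in *Pkd2*-/- cells (SD, n = 4 each). *Lamb2* made up 29.6% ± 1.97, 51.1% ± 0.31 and 24.3% ± 1.23. When the length of the longest transcript was used instead of the union of exons, *Lamb1* led in *Pkd1*-/- cells too, with 47.1% to the 41.0% of *Lamb2*. The lower share of *Lamb1* in *Pkd1*-/- than in Wt cells was kept, as it was 71.4% in Wt. The ratio of *Lamb2* to *Lamb1* per kilobase of exon was 0.47 ± 0.05 in Wt, 1.38 ± 0.02 in *Pkd1*-/- and 0.35 ± 0.02 in *Pkd2*-/- cells (SD, n = 4 each), and the ranges of the 3 genotypes did not overlap.

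*Lamc1*, the gamma chain that the alpha 5 laminins share, was the only gamma chain above 1 normalized count in any library, since *Lamc3* did not exceed 1. It held 4815, 4521, 5061 and 5644 normalized counts in Wt, 5276, 6256, 5750 and 6415 in *Pkd1*-/-, and 6128, 7065, 5539 and 7447 in *Pkd2*-/- cells. The mutants were higher on average and each overlapped with Wt. Against Wt, the log2 change was 0.24 in *Pkd1*-/- (standard error 0.09, limma adjusted p = 0.0436) and 0.38 in *Pkd2*-/- cells (standard error 0.09, adjusted p = 0.00133). A two-sided exact permutation test gave p = 0.0571 for each. With the length trend taken out, the value in *Pkd2*-/- cells was 0.23.

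**Figure D3:**
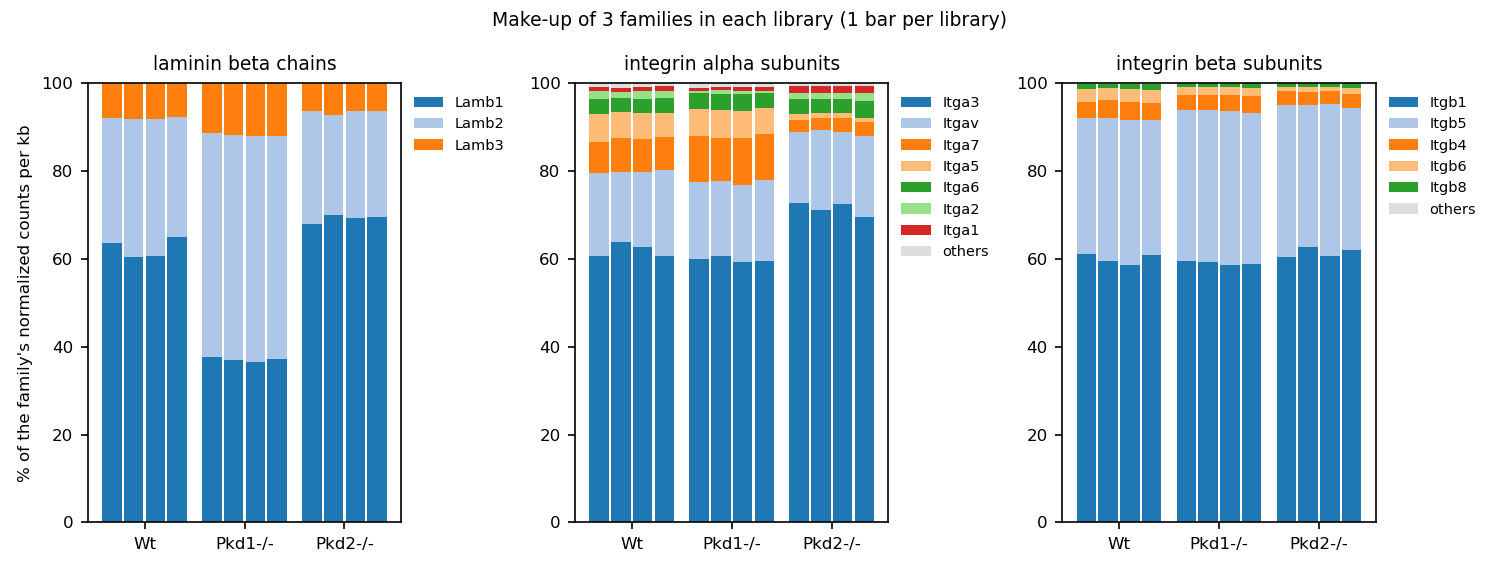
Share of each gene in the normalized counts per kilobase of exon of its family (y axis, percent), 1 bar per library, for laminin beta chains, integrin alpha subunits and integrin beta subunits. *Lamb2* takes 51.1% in *Pkd1*-/- against 29.6% in Wt libraries, *Itga3* 71.4% in *Pkd2*-/- against 61.9% in Wt libraries, and the beta subunits are led by *Itgb1* and *Itgb5* in every library.

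*Nid2* codes for nidogen-2, which binds laminin gamma 1 and collagen IV. It held 41, 48, 33 and 53 normalized counts in Wt, 6, 6, 10 and 1 in *Pkd1*-/-, and 1, 1, 2 and 5 in *Pkd2*-/- cells. Both mutants lay below Wt in all libraries and overlapped with each other. The log2 fold change was −2.94 in *Pkd1*-/- (standard error 0.47, limma adjusted p = 9.72e-05) and −3.92 in *Pkd2*-/- cells (standard error 0.47, adjusted p = 1.79e-06). These sizes depend on the pseudocount at such low values: with 5 in place of 1 they were −2.24 and −2.76. The mutants did not differ from each other at the threshold (−0.98, adjusted p = 0.104), and without *Pkd1*-/- replicate 4 or without *Pkd2*-/- replicate 4 they did, at −1.48 and −1.32. *Rtraf*, on the opposite strand, overlaps *Nid2* and had a mean of 2023 normalized counts, and a strand setting of the counting is not given in the sources used here. *Rtraf* itself differed from Wt by 0.04 (*Pkd1*-/-) and −0.15 (*Pkd2*-/-) on the log2 scale. *Nid1*, the other nidogen, did not exceed 7 normalized counts in any library.

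*Hspg2*, which codes for perlecan, held 5783, 6315, 7905 and 7920 normalized counts in Wt. It held 3770, 4805, 4457 and 5729 in *Pkd1*-/- and 9342, 10648, 8887 and 13644 in *Pkd2*-/- cells. The genotypes did not overlap. On the log2 scale, the change was −0.58 in *Pkd1*-/- (standard error 0.13, limma adjusted p = 0.00262), 0.60 in *Pkd2*-/- (adjusted p = 0.00107), and 1.18 between the mutants (adjusted p = 5.31e-07). With the length correction, the log2 fold change of *Hspg2* was 0.36 against Wt in *Pkd2*-/- cells and 0.92 between the mutants, which is below the limit for a strong difference. Its transcript of 14187 bases lies above 9536, where the correction no longer grows.

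*Agrn* codes for agrin, the other large heparan sulfate proteoglycan of tubular basement membranes, and had the highest level per kilobase of these 4 genes. It held 7224, 8194, 8742 and 8520 normalized counts in Wt, 5503, 6406, 6077 and 6593 in *Pkd1*-/-, and 10375, 10612, 9832 and 11643 in *Pkd2*-/- cells. The 3 genotypes were again apart, with *Pkd1*-/- lowest and *Pkd2*-/- highest. Fitted log2 changes were −0.41 in *Pkd1*-/- (standard error 0.07, limma adjusted p = 0.000112) and 0.38 in *Pkd2*-/- cells (standard error 0.07, adjusted p = 0.000137). With the length trend taken out, the value in *Pkd2*-/- cells was 0.18 (adjusted p = 0.0123).

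Among the alpha subunits of laminin receptors, *Itga3* pairs with *Itgb1* to form the alpha 3 beta 1 integrin. It held 7372, 8141, 8513 and 7952 normalized counts in Wt, 6020, 6967, 6465 and 6642 in *Pkd1*-/-, and 13513, 14043, 12717 and 14281 in *Pkd2*-/- cells. Every *Pkd2*-/- library held more than any Wt library, and every *Pkd1*-/- library less. Against Wt, the log2 change was 0.77 in *Pkd2*-/- (standard error 0.05, limma adjusted p = 1.42e-09), −0.29 in *Pkd1*-/- (adjusted p = 0.000441) and 1.06 between the mutants (adjusted p = 1.01e-11). Of the 50 neighboring genes on chromosome 11, 0 were further up than *Itga3* in *Pkd2*-/- cells, and their median was −0.07.

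*Itga6*, whose product binds laminin with *Itgb4* in hemidesmosomes or with *Itgb1*, had 671 ± 36.4 normalized counts in Wt, 629 ± 50.6 in *Pkd1*-/- and 1042 ± 138 in *Pkd2*-/- cells (SD, n = 4 each). It rose in *Pkd2*-/- cells by 0.63 on the log2 scale (limma adjusted p = 7.57e-06) and did not pass the test in *Pkd1*-/- cells (−0.09, adjusted p = 0.473, 95% interval −0.27 to 0.08). The 50 neighbors of *Itga6* on chromosome 2 had a median of 0.27 in *Pkd2*-/- cells. *Itgb4* went the other way in *Pkd2*-/- cells, with −0.34 (adjusted p = 0.000167). Their ratio per kilobase, *Itga6* over *Itgb4*, was 0.18 ± 0.01 in Wt, 0.19 ± 0.01 in *Pkd1*-/- and 0.36 ± 0.03 in *Pkd2*-/- cells (SD, n = 4 each). The size of such a ratio depends on the gene length used, while its relative change between genotypes does not. In Wt, *Itga6* and *Itgb4* had 74.3 and 409 normalized counts per kilobase of exon, but 156 and 462 with the longest transcript as length. *Itga7*, a laminin receptor subunit best known from muscle, had 1372 ± 97.6, 1600 ± 78.7 and 818 ± 70.9 normalized counts in Wt, *Pkd1*-/- and *Pkd2*-/- cells (SD, n = 4 each). It rose by 0.22 in *Pkd1*-/- (limma adjusted p = 0.0191) and fell by 0.75 in *Pkd2*-/- cells (adjusted p = 4.19e-08). Between the mutants its log2 difference was −0.97, and it passed the limit for a strong difference without *Pkd1*-/- replicate 1 and without *Pkd2*-/- replicate 4.

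Of the 4 alpha subunits of collagen receptors, 3 were tested, and 2 of them, *Itga1* and *Itga2*, were lower in *Pkd1*-/- and higher in *Pkd2*-/- cells. *Itga1* and *Itga2* code for the alpha 1 and alpha 2 subunits, which pair with *Itgb1* and bind collagen IV and collagen I. They are neighbors on chromosome 13 of GRCm38, on the minus strand, with *Itga2* from 114833081 to 114932100 and *Itga1* from 114953096 to 115101964. The gap is 20996 bases, with 0 protein-coding genes in it.

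*Itga1* held 402, 385, 463 and 449 normalized counts in Wt, 261, 321, 297 and 279 in *Pkd1*-/-, and 960, 1015, 869 and 1163 in *Pkd2*-/- cells. *Itga2* held 269, 209, 302 and 275 in Wt, 58, 104, 95 and 82 in *Pkd1*-/-, and 321, 336, 333 and 474 in *Pkd2*-/- cells. For both genes the 3 genotypes were apart, with *Pkd1*-/- lowest and *Pkd2*-/- highest. In *Pkd1*-/- cells the log2 fold change was −0.55 for *Itga1* (standard error 0.09, limma adjusted p = 0.000143) and −1.65 for *Itga2* (standard error 0.17, adjusted p = 3.68e-07). In *Pkd2*-/- cells it was 1.23 for *Itga1* (standard error 0.09, adjusted p = 2.86e-09) and 0.47 for *Itga2* (standard error 0.17, adjusted p = 0.0310). Between the mutants it was 1.78 for *Itga1* and 2.11 for *Itga2* (adjusted p = 1.03e-11 and 4.57e-09).

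Both transcripts are long. With the length trend taken out, *Itga1* rose by 0.99 in *Pkd2*-/- cells, just under the limit for a strong change, and the rise of *Itga2* no longer passed the test (0.34, adjusted p = 0.0528). Without *Pkd2*-/- replicate 4, which held 474 normalized counts of *Itga2* beside 321 to 336 in the other 3 libraries, the log2 fold change of *Itga2* was 0.33. *Pelo*, a gene on the same strand inside *Itga1*, had a mean of 1036 normalized counts and log2 fold changes of −0.09 in both mutants (adjusted p = 0.329 and 0.281). The 40 neighboring genes of *Itga1* had a median log2 difference of −0.01 in *Pkd1*-/- and −0.07 in *Pkd2*-/- cells, and 0 of them were further up than *Itga1* in *Pkd2*-/- cells.

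**Figure D4:**
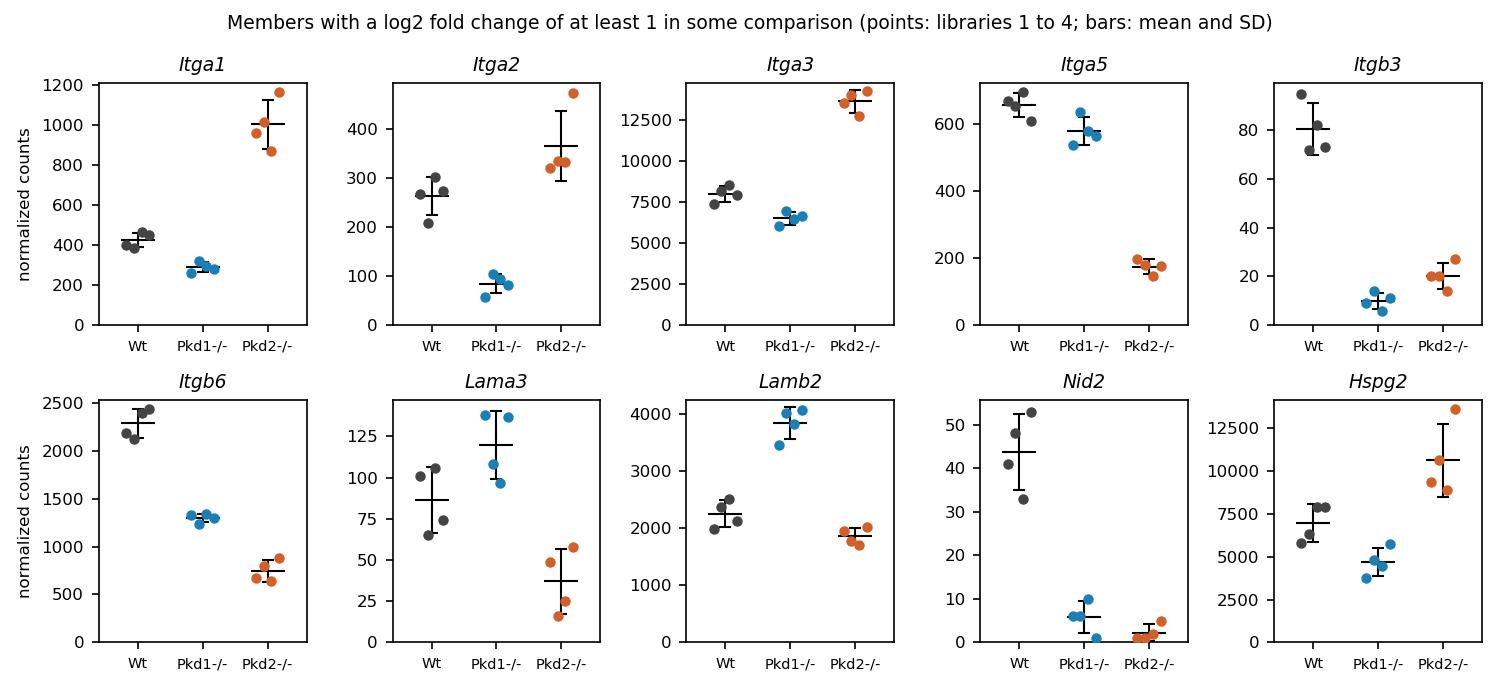
Normalized counts (y axes, from 0) of the 10 genes with a strong change in some comparison that averaged 10 or more, in each library (points), with the mean and SD (bars). *Itga1* and *Itga2* are lowest in *Pkd1*-/- and highest in *Pkd2*-/- cells, *Itga5* is lower in *Pkd2*-/- cells, and *Itgb3* and *Nid2* are lower in both.

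The sequence before the start of *Itga1* and *Itga2* is shown because these neighbors moved in the same direction in each mutant, though by unlike amounts. The ratio of *Itga2* to *Itga1* per kilobase of exon was 1.61 ± 0.15 in Wt, 0.76 ± 0.12 in *Pkd1*-/- and 0.95 ± 0.10 in *Pkd2*-/- cells (SD, n = 4 each). The sequence before *Itga5* is shown because this fibronectin receptor gene, described below, fell strongly in *Pkd2*-/- cells. RefSeq promoter sequences (GRCm38.p6) were found for 24 of the 36 genes, in 28 windows. Shown are the 250 bases before the annotated start, on the gene's own strand, at chr13:115101965-115102214 for *Itga1*, chr13:114932101-114932350 for *Itga2* and chr15:103366792-103367041 for *Itga5*, all on the minus strand. Capitals mark matches, on either strand, to any of 5 motifs: the GC box GGGCGG, the CCAAT box, the TATA box TATAAA, an AP-1 site TGANTCA and an ETS core CCGGAAG. The searched motifs do not share bases in these windows.
Itga1: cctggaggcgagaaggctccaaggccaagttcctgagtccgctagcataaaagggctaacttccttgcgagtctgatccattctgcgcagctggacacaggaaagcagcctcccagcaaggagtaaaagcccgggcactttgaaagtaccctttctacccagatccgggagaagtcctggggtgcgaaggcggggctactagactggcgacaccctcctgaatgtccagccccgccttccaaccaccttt
Itga2: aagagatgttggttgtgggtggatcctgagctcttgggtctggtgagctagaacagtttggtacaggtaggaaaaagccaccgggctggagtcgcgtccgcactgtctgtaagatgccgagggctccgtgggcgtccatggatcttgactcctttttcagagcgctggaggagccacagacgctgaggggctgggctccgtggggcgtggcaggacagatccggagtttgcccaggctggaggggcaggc
Itga5: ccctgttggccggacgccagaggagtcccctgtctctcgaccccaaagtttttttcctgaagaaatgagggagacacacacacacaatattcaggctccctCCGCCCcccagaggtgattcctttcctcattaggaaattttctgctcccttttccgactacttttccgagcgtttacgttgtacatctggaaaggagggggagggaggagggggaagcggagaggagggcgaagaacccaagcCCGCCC
*Itga1* and *Itga2* held none of the 5 motifs in this window, and *Itga5* held 2 GC boxes, 149 and 6 bases before the start. Over 32851 promoter windows of the same length, 32.7% held a GC box, 33.8% a CCAAT box, 12.4% a TATA box, 6.75% an AP-1 site and 6.91% an ETS core. Of the 28 windows of the listed genes, 12 held a GC box, 4 a CCAAT box, 0 a TATA box, 0 an AP-1 site and 1 an ETS core. These are matches of letters only.

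*Itga10*, the other tested collagen receptor subunit, known from cartilage, ranged from 7 to 20 normalized counts and passed no test.

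The alpha subunits of RGD receptors were split in *Pkd2*-/- cells. *Itga5* pairs with *Itgb1* to form the main fibronectin receptor. It held 669, 653, 694 and 608 normalized counts in Wt, 536, 634, 578 and 563 in *Pkd1*-/-, and 197, 179, 146 and 176 in *Pkd2*-/- cells. The *Pkd2*-/- libraries were at 26.6% of the Wt mean, and *Pkd1*-/- and Wt libraries overlapped. The log2 fold change was −1.91 in *Pkd2*-/- (standard error 0.09, limma adjusted p = 3.08e-12) and −0.18 in *Pkd1*-/- cells (standard error 0.09, adjusted p = 0.141, 95% interval −0.37 to 0.00). The 25 genes around it had a median log2 difference of −0.10 in *Pkd2*-/- cells.

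*Itgav*, whose product binds vitronectin, fibronectin and latent TGF-beta with several beta subunits, held 4290, 3832, 4382 and 4836 normalized counts in Wt, 3321, 3699, 3571 and 3871 in *Pkd1*-/-, and 5619, 6780, 5374 and 7127 in *Pkd2*-/- cells. It rose where *Itga5* fell, with a log2 fold change of 0.52 in *Pkd2*-/- (standard error 0.08, limma adjusted p = 5.40e-05) and −0.26 in *Pkd1*-/- cells (standard error 0.08, adjusted p = 0.0269). With the length trend taken out, the rise of *Itgav* in *Pkd2*-/- cells was 0.39. The 50 genes around *Itgav* had a median log2 difference of 0.37 in *Pkd2*-/- cells, and 19 of them rose further than *Itgav*. The ratio of *Itga5* to *Itgav* per kilobase was 0.33 ± 0.04 in Wt, 0.35 ± 0.02 in *Pkd1*-/- and 0.06 ± 0.01 in *Pkd2*-/- cells (SD, n = 4 each). *Itga2b*, the alpha subunit of the platelet integrin, had 80.2 ± 17.1, 56.2 ± 11.3 and 89.2 ± 4.86 normalized counts in Wt, *Pkd1*-/- and *Pkd2*-/- cells (SD, n = 4 each). It fell by 0.50 in *Pkd1*-/- cells (limma adjusted p = 0.0351) and did not pass the test in *Pkd2*-/- cells (0.17, adjusted p = 0.465).

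Of the other alpha subunits, *Itgae*, the partner of *Itgb7* on lymphocytes, held 16, 16, 14 and 11 normalized counts in Wt, 16, 27, 23 and 14 in *Pkd1*-/-, and 15, 10, 7 and 11 in *Pkd2*-/- cells. It differed between the mutants only (−0.84, limma adjusted p = 0.0272), the groups overlapped, and *Haspin* on the opposite strand lies within it. *Itga9*, which binds tenascin, did not exceed 10 normalized counts.

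Against Wt, 4 of the 8 beta subunits fell in each mutant and 0 rose, where 13.5% of all genes fell in *Pkd1*-/- and 22.3% in *Pkd2*-/- cells. *Itgb1*, the partner of most alpha subunits named here, held 25387, 25939, 25888 and 27100 normalized counts in Wt, 23725, 24817, 23898 and 23884 in *Pkd1*-/-, and 25291, 27522, 25592 and 26880 in *Pkd2*-/- cells. The *Pkd1*-/- libraries were the lowest 4, but by little: the log2 fold change was −0.11 (standard error 0.04, limma adjusted p = 0.0567, or 0.0458 after upper quartile rescaling). In *Pkd2*-/- cells it was 0.01 (adjusted p = 0.848, 95% interval −0.08 to 0.10). *Itgb5*, which pairs with *Itgav*, had a log2 fold change of 0.03 in *Pkd1*-/- (95% interval −0.06 to 0.13) and 0.05 in *Pkd2*-/- cells (95% interval −0.04 to 0.15). *Itgb5* passed the test in no comparison.

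*Itgb3*, the beta subunit of the vitronectin receptor and of the platelet integrin, held 95, 72, 82 and 73 normalized counts in Wt. It held 9, 14, 6 and 11 in *Pkd1*-/- and 20, 20, 14 and 27 in *Pkd2*-/- cells. All mutant libraries were far below Wt, at 12.4% and 25.2% of its mean. On the log2 scale, the change was −2.93 in *Pkd1*-/- (standard error 0.26, limma adjusted p = 6.96e-08) and −1.97 in *Pkd2*-/- cells (standard error 0.26, adjusted p = 5.85e-06). Between the mutants it was 0.97 (adjusted p = 0.00488), and it passed 1 with a pseudocount of 0.5 (1.01) or without *Pkd1*-/- replicate 2, *Pkd1*-/- replicate 4 or *Pkd2*-/- replicate 3 (1.14, 1.03 and 1.13). Of the 50 genes around *Itgb3*, 0 fell further in either mutant.

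*Itgb6*, the epithelial partner of *Itgav* that activates latent TGF-beta, held 2185, 2126, 2396 and 2432 normalized counts in Wt, 1325, 1234, 1337 and 1295 in *Pkd1*-/-, and 668, 801, 637 and 883 in *Pkd2*-/- cells. The 3 genotypes formed separate steps. Fitted log2 changes were −0.81 in *Pkd1*-/- (standard error 0.08, limma adjusted p = 4.41e-07), −1.62 in *Pkd2*-/- (adjusted p = 1.33e-11) and −0.81 between the mutants (adjusted p = 1.80e-07). The 50 genes around it on chromosome 2 had a median of 0.38 in *Pkd2*-/- cells, so *Itgb6* lay against its neighbors. Its ratio to *Itgb8* per kilobase, the other subunit that activates latent TGF-beta, was 2.57 ± 0.19 in Wt, 2.03 ± 0.27 in *Pkd1*-/- and 1.03 ± 0.09 in *Pkd2*-/- cells (SD, n = 4 each).

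*Itgb8* itself had 1393 ± 182, 1004 ± 112 and 1132 ± 146 normalized counts in Wt, *Pkd1*-/- and *Pkd2*-/- cells (SD, n = 4 each). It fell by 0.47 in *Pkd1*-/- (limma adjusted p = 0.00112) and by 0.30 in *Pkd2*-/- cells (adjusted p = 0.0186). *Itgb4*, the hemidesmosome subunit, had 2866 ± 207, 2540 ± 128 and 2262 ± 168 and fell by 0.17 (adjusted p = 0.0445) and 0.34 on the log2 scale. *Itgb2* and *Itgb7*, subunits of leukocyte integrins, did not exceed 4 and 20 normalized counts and passed no test.

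For the exact permutation test, 4 libraries against 4 cannot give a two-sided p below 0.0286. Of the 10 genes that changed strongly and averaged 10 or more, each reached this value in every comparison in which it changed strongly. These genes were picked for strong changes in the same libraries, so this adds no separate support. Leaving out 1 library at a time kept the 3 genes called in *Pkd1*-/- and the 6 called in *Pkd2*-/- cells against Wt, and added at most 1 gene.

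**Figure D5:**
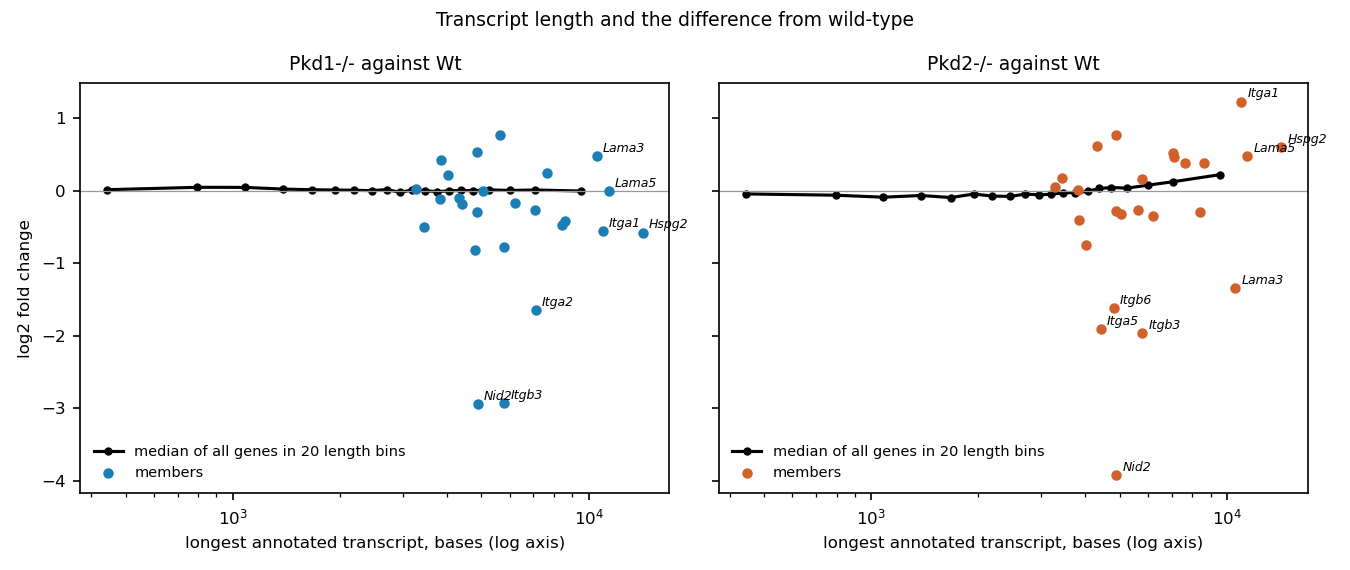
Log2 fold change against Wt (y axis) over the longest annotated transcript in bases (log axis), for the 25 listed genes that averaged 10 or more (colored points) and the median of all such genes in 20 bins of length (black line). The line stays near 0 for *Pkd1*-/- and rises with length for *Pkd2*-/- cells, and *Itga1* and *Hspg2* lie above it in *Pkd2*-/- cells while *Itga5*, *Itgb3*, *Itgb6*, *Lama3* and *Nid2* lie below.

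Other genes of the same systems were read from 3 lists. Of 25 genes of the integrin adhesion machinery, which links integrins to actin, 23 were tested. In *Pkd1*-/- cells 12 differed from Wt, 9 lower and 3 higher (27.1% of all genes differed), and in *Pkd2*-/- cells 15 differed, 7 lower and 8 higher (42.3% of all genes). *Tns1* (tensin-1) had log2 fold changes of −7.26 in *Pkd1*-/- and −3.01 in *Pkd2*-/- cells, from 258 normalized counts in Wt to 1.00 and 32.8. *Fermt1* (kindlin-1, an integrin activator) had −1.04 and −4.68. In *Pkd2*-/- cells *Ptk2b* fell by 2.63 and *Parvb* (beta-parvin) rose by 4.23, from 9.25 to 180 normalized counts. Smaller changes were found in other genes of this list. *Ptk2* (focal adhesion kinase) rose in both mutants (0.29 and 0.30), *Fermt2* (0.32) and *Pxn* (0.16) rose in *Pkd2*-/- cells, *Lims1* fell by 0.19 in *Pkd2*-/- cells, and *Vcl* (vinculin) fell by 0.32 in *Pkd1*-/- cells (limma adjusted p = 0.0426), where the groups overlapped. *Tln1*, *Parva* and *Rsu1* did not pass the test in any comparison.

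Of 22 other basement membrane components and ligands, 18 were tested. In *Pkd1*-/- cells 14 differed from Wt, 10 lower and 4 higher, beside 13.5% lower and 13.6% higher over all genes. In *Pkd2*-/- cells 13 differed, 9 lower and 4 higher, beside 22.3% and 20.0%. Their median log2 difference from Wt was −0.60 in *Pkd1*-/- and −0.48 in *Pkd2*-/- cells. Collagen IV chains are the partner network of laminin in the basement membrane. In *Pkd1*-/- and *Pkd2*-/- cells, the log2 fold changes were −4.62 and −3.97 for *Col4a1* and −3.26 and −0.83 for *Col4a2*, which held only 58.0 and 78.5 normalized counts in Wt and overlap at their starts on opposite strands. The other 4 chains had higher levels per kilobase of exon. *Col4a3* fell by 1.03 in *Pkd1*-/- and rose by 0.53 in *Pkd2*-/- cells. *Col4a4*, with 3425 normalized counts in Wt, fell by 0.81 in *Pkd1*-/- cells and did not pass the test in *Pkd2*-/- cells (−0.03). With the length trend taken out, *Col4a4* passed as lower in *Pkd2*-/- cells too (−0.27, limma adjusted p = 3.26e-05). Its transcript of 10108 bases lies above 9536, where the correction no longer grows. *Col4a5* and *Col4a6*, with 3203 and 1996 in Wt, rose in *Pkd1*-/- (0.22 and 0.62) and fell in *Pkd2*-/- cells (−0.46 and −0.49). *Fn1* (fibronectin, the ligand of *Itga5*) had 7408, 9746 and 2469 normalized counts in Wt, *Pkd1*-/- and *Pkd2*-/- cells, with log2 fold changes of 0.39 (limma adjusted p = 0.00719) and −1.60. *Tinag* fell in both mutants (−1.95 and −3.65), as did *Ntn4* (netrin-4, which binds laminin gamma 1, at −1.46 and −0.93) and *Fras1* (−0.92 and −2.02). *Frem2*, with 23.5 normalized counts in Wt, fell by 1.76 in *Pkd1*-/- and rose by 1.52 in *Pkd2*-/- cells (1.28 with the length correction). *Col18a1*, with 8820 in Wt, rose by 0.56 in *Pkd2*-/- cells and did not pass the test in *Pkd1*-/- cells (−0.08). *Npnt* (nephronectin, a ligand of the alpha 8 beta 1 integrin, whose *Itga8* was at 0) was high in all genotypes, at 24382, 21332 and 23141 normalized counts. *Npnt* fell by 0.19 in *Pkd1*-/- cells (limma adjusted p = 0.00483) and did not pass the test in *Pkd2*-/- cells (−0.08).

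Of 6 other laminin receptor and hemidesmosome genes, 0 differed from Wt in *Pkd1*-/- cells by limma, and 1 had an unadjusted p under 0.05. Against 20.0% higher and 22.3% lower over all genes, 4 rose and 0 fell in *Pkd2*-/- cells: *Dag1* (dystroglycan) by 0.33, *Bcam* by 0.34, *Plec* (plectin) by 0.65 and *Dst* by 0.37. *Plec* and *Dst* have very long transcripts, far above the 9536 bases up to which the length correction grows. With the length trend taken out, *Plec* rose by 0.41, and *Dst* no longer passed the test (0.13, adjusted p = 0.394) and passed it in *Pkd1*-/- cells (0.41, adjusted p = 0.0107).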

How the data were processed

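RNA of mIMCD3 cells was sequenced in 12 libraries, 4 per genotype. According to the methods and the submitters' processing notes, the authors trimmed reads with Trim Galore, aligned them to mm10 (GRCm38) with HISAT2, counted them per gene with htseq-count and normalized them with DESeq2. The strand setting is not given in the sources used here. The deposited values are a score, namely normalized counts that the authors divided by a size factor per library and rounded to whole numbers, so they are not read counts, and count models were not used. Rounding hides what 1 read is worth, and read depth was not recovered. Symbols, positions and lengths came from GENCODE M21, which held 47223 of 47642 identifiers (419 were not found), and 0 sample columns were left unused. No 2 libraries were identical.

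Values were tested as log2(normalized count + 1) with limma 3.58.1 (R 4.3.3, lmFit and eBayes with a variance trend) over the 18552 genes that averaged 1 or more, in 1 model of all 12 libraries, with Benjamini-Hochberg adjustment within each of 3 comparisons. Fold changes on this scale understate those of low genes. Strong changes needed an adjusted p under 0.05 together with a log2 fold change of 1 or more in size, the study's thresholds. Single genes were also compared by two-sided exact permutation tests. The test was tried on simulated data. The 10 genes with a strong change and a mean of at least 10, and the highest gene per kilobase of each group, are given in every library. From the other lists, the genes named are taken from those with the largest strong changes, and further genes were picked after their values were seen. Levels per kilobase used the union of annotated exons, shares and ratios are described without a test, and neighbors are up to 25 genes on each side with a mean of at least 10. Members, lists and tests were chosen with earlier results of these data known. Alternatives were other pseudocounts (0.5, 5), no filter, a minimum mean of 10, a replicate block, only the 2 genotypes compared, upper quartile rescaling, no variance trend, each library left out, another transcript length for levels and, added after the data were seen, a correction for transcript length over 20 bins. The length correction was interpolated between bin medians and held constant above the last of them, 9536 bases. Python 3.11.15 with pandas 2.3.3, numpy 2.4.6 and scipy 1.17.1 was used.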

Additional observations from a re-analysis of the deposited data

Results flagged for a closer look

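Of 75 groups of 4 libraries (25 genes in 3 genotypes), 4 held a library far from the other 3, or 5.33%, and chance alone flags about 1 in 20 such groups. *Itga7* had 1227 normalized counts in Wt replicate 1, beside 1406 to 1432 in the other Wt libraries. *Itgb1* had 24817 in *Pkd1*-/- replicate 2, beside 23725 to 23898. *Pkd2*-/- replicate 4 stood out for *Itga2*, with 474 beside 321 to 336, and for *Itgb8*, with 1350 beside 1042 to 1076. Without *Pkd2*-/- replicate 4, the log2 fold change of *Itga2* in *Pkd2*-/- cells was 0.33 in place of 0.47.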

How the results depend on the processing

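Counts of all genes and of listed genes, called or at an adjusted p under 0.05, stayed within 1.5 times the reported value in 72 of 72 cases with 1 library left out and in 80 of 81 under the other alternatives. The exception was the number of strong changes in *Pkd1*-/- against Wt over all genes, 1158, which was 739 with a minimum mean of 10. No direction of the 10 genes given in full was reversed. Taking out the length trend, an alternative chosen after seeing the data, ended the strong call of *Itga1* in *Pkd2*-/- against Wt (0.99) and of *Hspg2* (0.92) and *Nid1* (adjusted p = 0.0524) between the mutants, and left 3, 5 and 6 strong changes among the listed genes in the 3 comparisons, in place of 3, 6 and 8. With 1 library left out these numbers were 3 to 4, 6 to 7 and 7 to 10. With a replicate block they were 3, 6 and 8. Without a variance trend, *Lamb1*, *Itga2* and *Itgb8* in *Pkd2*-/- and *Lamc1*, *Itga7*, *Itgav* and *Itgb4* in *Pkd1*-/- cells no longer passed the test against Wt. Replicate numbers were shared by name only: deviations of same-numbered libraries correlated between −0.07 and 0.20 over 13703 genes, above 0.1 in 2 of 12 pairs, and 3 of 12 libraries correlated best with their own number in both other genotypes. With the longest transcript as length, 19, 17 and 18 of the 36 genes kept their place in the order by level per kilobase in Wt, *Pkd1*-/- and *Pkd2*-/- cells. Values under about 10 normalized counts, as for *Nid1*, *Lama4*, *Itga9* and *Itgb2*, are too low to show a moderate difference.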
